A study of Mus musculus with 21 samples.

Results

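RNA levels of 9 complement genes were examined in sorted brain myeloid cells after controlled cortical impact (CCI), a model of traumatic brain injury in which a piston strikes the exposed cortex. The genes were chosen by symbol: the 3 chains of C1q (C1qa, C1qb, C1qc), the components C3, C4b, Cfb and Cfp, and the receptors C3ar1 and C5ar1. They are 9 of the 45706 genes in the expression table, and all 9 were among the 23815 genes that passed the filter on low counts.

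Complement is a cascade of blood and tissue proteins that marks targets for uptake and recruits leukocytes. In the classical pathway C1q binds a target and leads to cleavage of C4 and then C3. In the alternative pathway factor B (Cfb) joins deposited C3 fragments to form an enzyme that cleaves more C3, and properdin (Cfp) stabilizes that enzyme. The small fragments released from C3 and C5 act on the G protein-coupled receptors encoded by C3ar1 and C5ar1. Microglia, the resident macrophages of the brain, are known as its main source of C1q, which takes part in the removal of synapses.

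The 21 libraries formed 7 groups of 3. Microglia, sorted as CD45low CD11b+ cells, came from wild-type (WT) sham controls and from 4 injured groups, which were WT or Fgg γ390–396A knock-in mice killed 1 d or 7 d after CCI. Infiltrating myeloid cells, sorted as CD45hi CD11b+ cells and labelled macrophages by the submitters, came from both genotypes, only 1 d post-CCI. All mice were males aged 17 to 24 weeks on a C57BL/6 background, and each library pooled tissue around the lesion from 2 brains. The knock-in mice carry a fibrinogen γ chain that lacks the motif for binding CD11b/CD18, the integrin also known as complement receptor 3, while clotting is retained. The mutation is present in every cell from the germline on. There was no sham group of Fgg γ390–396A mice, so a genotype difference present before injury cannot be told apart from a different response to injury.

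Levels are given as CPM (counts relative to library size) scaled between libraries with trimmed mean of M-values (TMM) factors. Gene length had been divided out of the deposited values, so levels can be compared between genes. Library totals ranged from 18896957 to 51875767 counts, of which 43.0% to 58.5% were ribosomal RNA, and 3 counts corresponded to between 0.0448 and 0.158 CPM, which covers counting error only. In bulk samples such as these, fewer cells of a type and less RNA per cell cannot be told apart. The quasi-likelihood test of edgeR was adjusted after Benjamini and Hochberg over all genes tested. A gene was called changed when its log2 fold change exceeded 1 in either direction and its adjusted p was under 0.05, or under 0.1 in comparisons of genotype.

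Markers of the sorted populations were present. The summed level of 8 microglia markers was 10037 to 11159 CPM in sham microglia, 2745 to 8163 CPM in microglia after CCI and 345 to 963 CPM in infiltrating myeloid cells. The infiltrating cells, which the labels call macrophages, also held neutrophil markers that summed to 2799 to 13271 CPM and monocyte markers that summed to 755 to 1115 CPM. Most of the neutrophil sum was S100a8 and S100a9, at 7308 and 5067 CPM in WT infiltrating replicate 3. Of the other markers on that list, Retnlg, Mmp8, Mmp9 and Cxcr2 were above every microglia library. Camp, Ngp and Ltf were at or below 5.95 CPM in infiltrating cells, within the range of sham, and Csf3r and Ly6g overlapped sham. The sham libraries differed among themselves. In sham replicate 3 the 11 neutrophil markers summed to 817 CPM, against 160 and 249 CPM in replicates 1 and 2, and the 6 monocyte markers to 39.0 CPM, against 5.74 and 5.96 CPM. Csf3r, a neutrophil marker held by all microglia libraries, made up 158, 160 and 187 CPM of the neutrophil sums in sham replicates 1, 2 and 3. In sham replicate 1 the genes of the response to dissociation summed to 1495 CPM, against 252 and 329 CPM in replicates 2 and 3, and the border-associated macrophage markers to 4.59 CPM, against 107 and 232 CPM. Results against sham that rest on replicate 3 are given with and without it, where replicate 1 is 1 of the 2 sham libraries that remain, and the part of these other cells in the results was not tested.

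All 9 genes lie on the minus strand in GRCm38. C1qb (chr4:136880129-136886187), C1qc (chr4:136889804-136893065) and C1qa (chr4:136895917-136898803) form a cluster of 18675 bases. C4b (chr17:34728380-34743882) and Cfb (chr17:34856374-34862518) share the major histocompatibility region, 112491 bases apart, and C3 (chr17:57203970-57228136) lies elsewhere on that chromosome. C3ar1 (chr6:122847138-122856161), C5ar1 (chr7:16246743-16259540) and Cfp (chrX:20925454-20931555) are each the only member on their chromosome. C5ar2 (chr7:16234585-16244154), which encodes the second receptor for C5a and is not a member, lies near C5ar1 on the same strand. No member, 0 of 9, lies on chromosome 3, which carries Fgg.

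RefSeq promoter sequences (GRCm38.p6) were matched for 6 of the 9 genes, C1qb, C1qc, C3, C3ar1, C5ar1 and Cfp. The 250 bases upstream of the start site are shown for C1qc, a chain that was high in microglia and not called against sham (chr4:136892915-136893164), and for the receptors that rose 1 d post-CCI, C3ar1 (chr6:122856158-122856407) and C5ar1 (chr7:16259339-16259588), all on the minus strand. The start sites are those of RefSeq and differ from the gene positions above, which are from GENCODE. GENCODE starts C1qc at 136893065 and C5ar1 at 16259540, well within these windows, so much of both sequences lies inside the GENCODE gene. For C3ar1 the GENCODE start, 122856161, lies at the edge of the window. Capitals mark matches to the motifs described after the sequences.
C1qc: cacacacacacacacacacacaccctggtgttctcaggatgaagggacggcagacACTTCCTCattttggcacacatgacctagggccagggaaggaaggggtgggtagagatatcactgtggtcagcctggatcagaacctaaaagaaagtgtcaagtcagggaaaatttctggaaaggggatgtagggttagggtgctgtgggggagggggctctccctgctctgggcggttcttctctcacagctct
C3ar1: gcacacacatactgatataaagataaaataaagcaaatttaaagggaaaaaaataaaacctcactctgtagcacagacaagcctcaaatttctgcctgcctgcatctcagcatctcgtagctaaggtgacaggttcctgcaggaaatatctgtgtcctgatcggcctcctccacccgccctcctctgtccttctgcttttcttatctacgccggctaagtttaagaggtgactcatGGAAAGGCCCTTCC
C5ar1: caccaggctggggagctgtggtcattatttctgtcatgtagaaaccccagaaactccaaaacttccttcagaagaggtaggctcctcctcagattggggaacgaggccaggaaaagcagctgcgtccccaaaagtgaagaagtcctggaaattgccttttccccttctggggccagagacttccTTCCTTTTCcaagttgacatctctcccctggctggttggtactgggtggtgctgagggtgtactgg

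In windows from 250 bases before to 50 bases after the start site, 4 motifs were searched on both strands among 32851 promoters. GAGGAAGT, the core bound by the myeloid factor PU.1, was in 3.2% of all promoters and among these genes in C1qc alone, with its first base at -195. GGNNNTTCC, a pattern found in NF-kB sites, was in 18.5% of all promoters and in C3ar1, where 2 overlapping matches began at -14 and -9, and in C1qb, where it began at 36 bases after the start site. GAAANNGAA, from the interferon-stimulated response element, was in 8.56% of all promoters and in C5ar1 at -66. TTCNNNGAA, the STAT pattern, was in 8.3% of all promoters and in 0 of these 6. The windows of C3 and Cfp held 0 matches to the 4 motifs. These matches describe letters and are not evidence of binding.

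**Figure D1:**
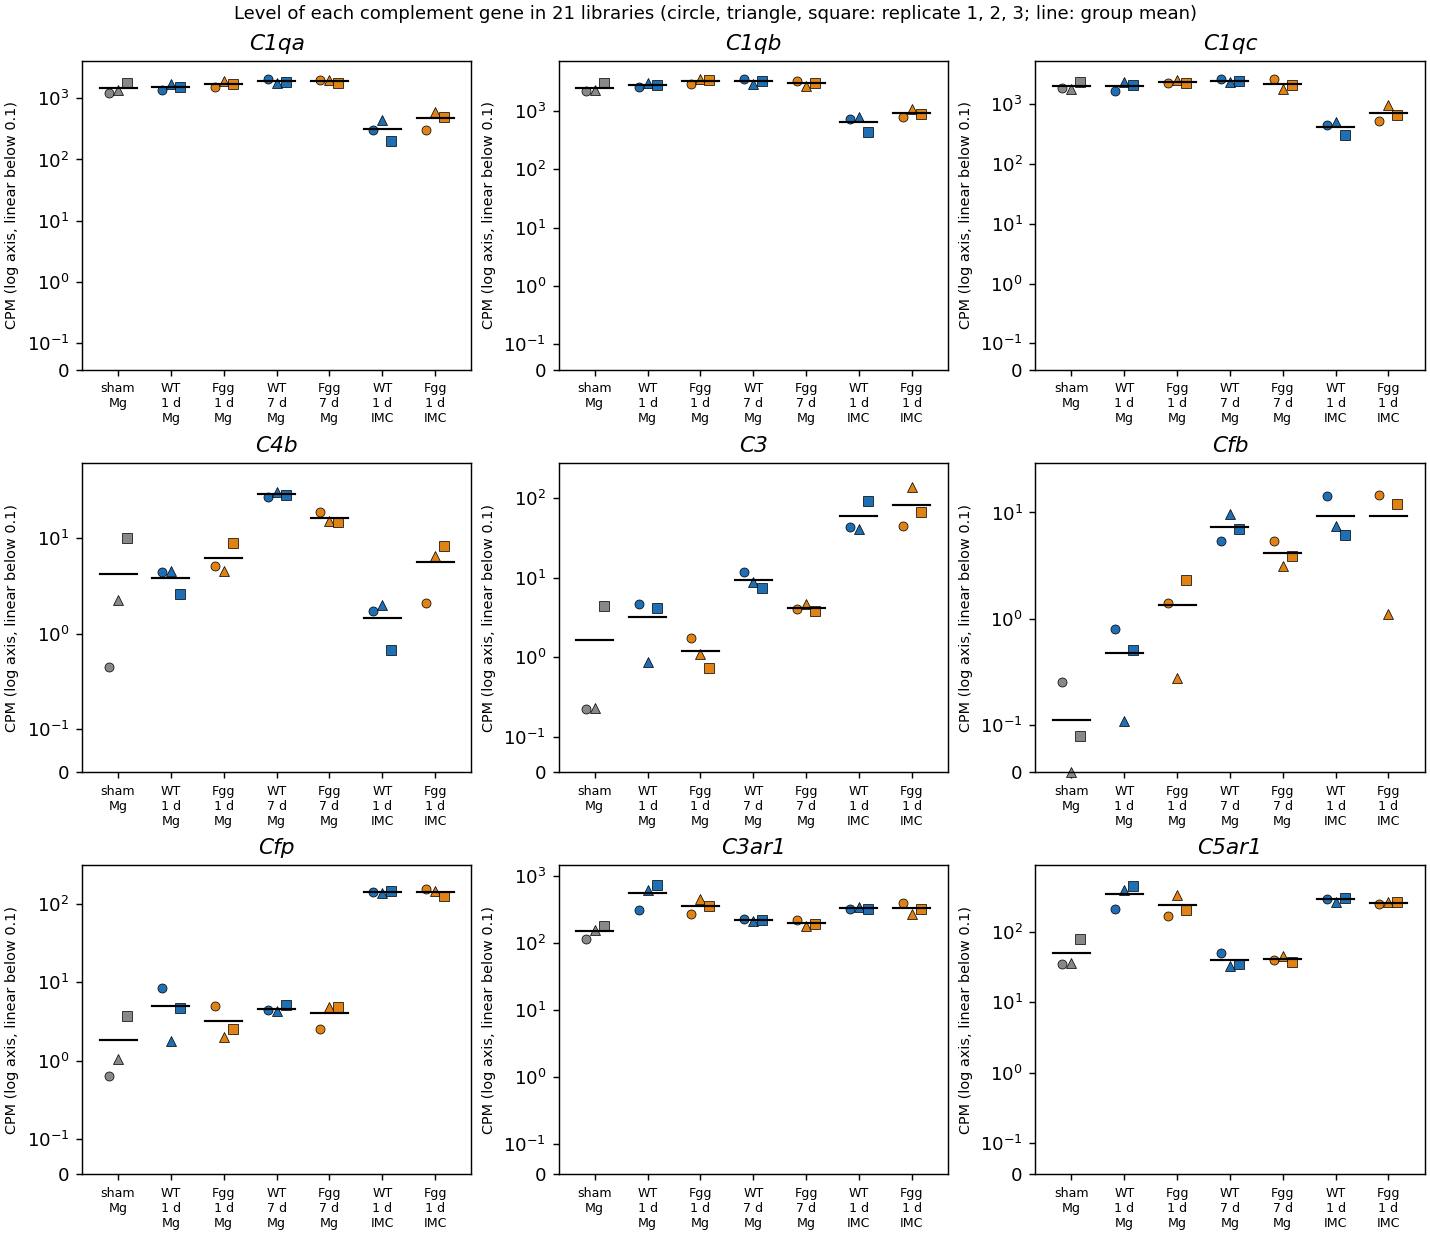
Level of each of the 9 genes in CPM on a log axis that is linear below 0.1, in 7 groups (Mg, microglia; IMC, infiltrating myeloid cells), with 1 point per library and a line at the group mean. The C1q chains are at or above 1246 CPM in every microglia library, C3ar1 and C5ar1 are high at 1 d, C4b and Cfb are higher at 7 d, and Cfp is at or above 128 CPM in infiltrating cells and at or below 8.44 CPM in microglia.

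The 3 chains of C1q, which assemble into the molecule that starts the classical pathway, were the most abundant members in every microglia group. In sham microglia C1qa measured 1246, 1370 and 1765 CPM, C1qb 2251, 2300 and 3018 CPM, and C1qc 1881, 1811 and 2361 CPM. C1qb was the highest of the 3 chains in all 21 libraries, at 1.37 to 2.62 times C1qa and 1.15 to 1.65 times C1qc. Together the chains took 1.58% ± 0.20 (SD, n = 3) of the counts outside ribosomal RNA in sham microglia, and 1.23% ± 0.065 in WT microglia at 1 d.

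None of the chains passed the test against sham controls at either time in either genotype. In WT mice at 1 d, the log2 fold changes were 0.10 ± 0.25 (SE) for C1qa, 0.16 ± 0.21 for C1qb and 0.01 ± 0.22 for C1qc. At 7 d in WT mice they were 0.38 ± 0.25, 0.37 ± 0.21 and 0.30 ± 0.22, with 95% intervals that reached 0.90 for C1qa, 0.81 for C1qb and 0.77 for C1qc. The sign depended on the scaling: without TMM factors, on library totals, C1qa, C1qb and C1qc in WT mice at 1 d were at -0.65, -0.59 and -0.75, still short of the fold threshold, and at 7 d in WT mice at -0.17, -0.17 and -0.25. On the totals scale the median of 5437 expressed genes at 1 d in WT mice was -0.54, against 0.21 with TMM. Relative to that median, C1qa, C1qb and C1qc at 1 d in WT mice were at -0.11, -0.05 and -0.20 with TMM and at -0.11, -0.05 and -0.21 with totals.

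In infiltrating myeloid cells all 3 chains were lower than in microglia of the same genotype at 1 d. C1qa measured 303, 447 and 203 CPM in WT infiltrating cells, against 1384, 1743 and 1559 CPM in WT microglia. The knock-in libraries held 309, 607 and 499 CPM of C1qa, against 1547, 1959 and 1715 CPM. The libraries of the 2 populations did not overlap in either genotype. C1qa was 4.91-fold lower in WT mice (edgeR adjusted p = 4.88e-06) and 3.69-fold lower in Fgg γ390–396A mice (edgeR adjusted p = 2.98e-05). C1qb was 4.24-fold and 3.57-fold lower, and C1qc 4.85-fold and 3.27-fold lower. The 8 microglia markers, summed, ranged from 345 to 645 CPM in the WT and from 564 to 963 CPM in the Fgg γ390–396A infiltrating libraries. The part of microglia in this sort in the C1q level was not tested.

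The 3 genes whose level across the 21 libraries was most like that of C1qa, by Pearson correlation of log2(CPM + 0.5) among 5122 genes with a mean of at least 10 CPM, were Cd81, a tetraspanin (r = 0.983), Daglb, a diacylglycerol lipase (0.981), and Slc12a9 (0.978). Cd81 and Slc12a9 were also among the 3 most like C1qb, with Klhl6, and among the 3 most like C1qc, with Asph. C1qa correlated with C1qb at 0.989 and with C1qc at 0.986. These are descriptions over libraries that share depth and group structure.

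The receptors C3ar1 and C5ar1 were the members that rose in microglia of both genotypes at 1 d. C3ar1, the receptor for the C3a fragment, measured 114, 159 and 180 CPM in sham microglia, 310, 621 and 728 CPM in WT microglia at 1 d, and 271, 449 and 352 CPM in Fgg γ390–396A microglia at 1 d. Every 1 d library was above every sham library. C3ar1 rose 3.66-fold in WT mice (log2 fold change 1.87 ± 0.26 SE, edgeR adjusted p = 3.52e-05) and 2.37-fold in Fgg γ390–396A mice (1.24 ± 0.26, edgeR adjusted p = 0.00266). The C3ar1 call in Fgg γ390–396A mice fell short of the fold threshold when TMM factors were left out, at 0.80 on library totals and 0.92 on totals outside ribosomal RNA.

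C5ar1, the receptor through which C5a attracts and activates myeloid cells, measured 34.8, 36.8 and 80.0 CPM in sham microglia. It measured 212, 395 and 452 CPM in WT microglia at 1 d, and 173, 341 and 209 CPM in Fgg γ390–396A microglia. The groups did not overlap, and sham replicate 3 was the highest of the sham libraries. C5ar1 rose 6.97-fold in WT mice (2.80 ± 0.33, edgeR adjusted p = 6.44e-06) and 4.76-fold in Fgg γ390–396A mice (2.25 ± 0.32, edgeR adjusted p = 0.000105). Without sham replicate 3 the log2 fold changes of C5ar1 were 3.30 and 2.75.

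At 7 d both receptors were near sham levels. C3ar1 measured 230, 215 and 222 CPM in WT and 223, 183 and 193 CPM in Fgg γ390–396A microglia, and C5ar1 measured 51, 32.7 and 35.6 CPM in WT and 40.2, 45.5 and 37.4 CPM in Fgg γ390–396A microglia. The C5ar1 values overlapped those of sham controls, whereas every C3ar1 value stood above sham without passing the test (0.56 ± 0.25 in WT and 0.40 ± 0.25 in Fgg γ390–396A mice). From 1 d to 7 d, C5ar1 fell 8.88-fold in WT mice (edgeR adjusted p = 1.38e-05) and 5.87-fold in Fgg γ390–396A mice (edgeR adjusted p = 0.000117). C3ar1 fell 2.49-fold in WT mice (edgeR adjusted p = 0.00182). In Fgg γ390–396A mice the C3ar1 log2 fold change was -0.84 ± 0.25 (edgeR adjusted p = 0.059), which did not pass, and it was -1.01 (edgeR adjusted p = 0.0261) without Fgg γ390–396A 1 d microglia replicate 1.

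Both receptors were expressed in both sorted populations at 1 d. C3ar1 measured 319, 348 and 321 CPM in WT and 400, 272 and 324 CPM in Fgg γ390–396A infiltrating cells, and C5ar1 measured 298, 272 and 310 CPM and 254, 268 and 271 CPM. These values overlapped those of 1 d microglia, and neither receptor passed the test between populations. For C3ar1 in WT mice the log2 fold change was -0.75 ± 0.25 (edgeR adjusted p = 0.0502), and it passed, at -1.04 (edgeR adjusted p = 0.00278), without WT 1 d microglia replicate 1. For C5ar1 the 95% intervals ran from -0.91 to 0.38 in WT and from -0.51 to 0.78 in Fgg γ390–396A mice. Across the 21 libraries C3ar1 and C5ar1 correlated at 0.854. The genes most like C3ar1 were Cops2 (r = 0.949), Nrp2 and Milr1, and those most like C5ar1 were Il4ra, the interleukin-4 receptor α chain (r = 0.984), Ssr3 and Hnrnpab.

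**Figure D2:**
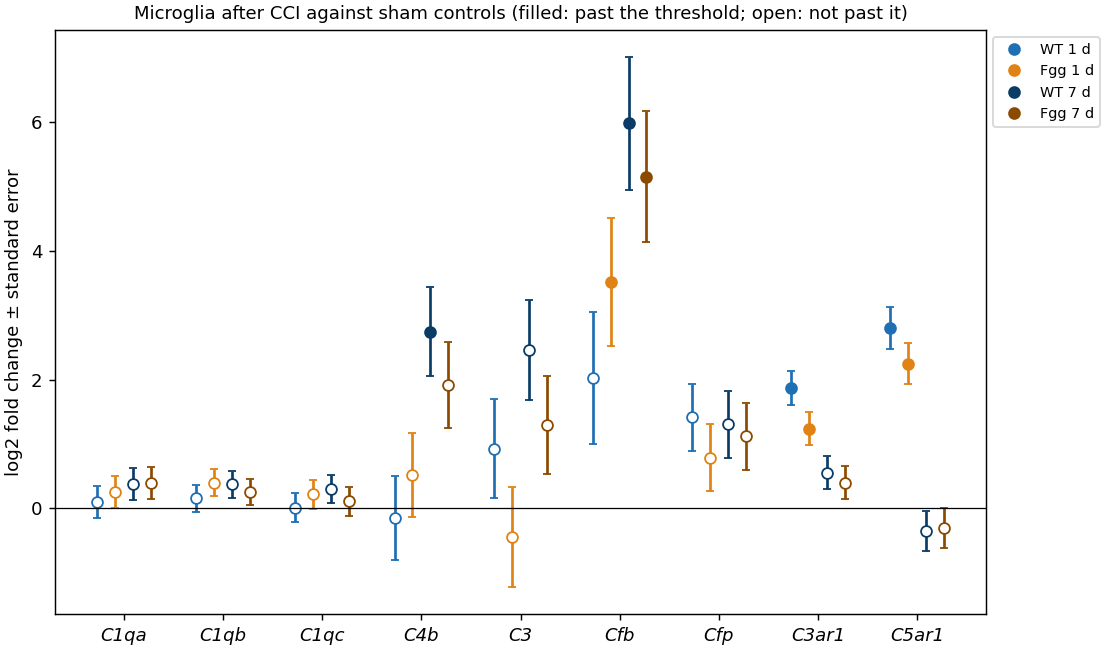
Log2 fold change of each gene in microglia after CCI against sham controls, with bars for 1 standard error, in WT and Fgg mice at 1 d and 7 d (3 libraries per group). Filled points passed the threshold: C3ar1 and C5ar1 in both genotypes at 1 d, Cfb in 3 of the comparisons, and C4b in WT mice at 7 d.

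C4b and Cfb were the members that rose in microglia at 7 d. C4b, the component cleaved after C1q binding, measured 0.446, 2.24 and 9.98 CPM in sham microglia. It measured 4.39, 4.52 and 2.62 CPM in WT microglia at 1 d, and 27.1, 30.3 and 28.3 CPM at 7 d. Fgg γ390–396A microglia held 5.12, 4.51 and 8.84 CPM at 1 d, and 18.6, 14.9 and 14.6 CPM at 7 d. All 7 d libraries were above all sham and all 1 d libraries, and sham replicate 3 was the highest of the sham libraries.

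In WT mice C4b rose 6.71-fold over sham at 7 d (2.75 ± 0.69, edgeR adjusted p = 0.0334) and 7.43-fold over 1 d (2.89 ± 0.69, edgeR adjusted p = 0.00923). In Fgg γ390–396A mice its log2 fold change at 7 d was 1.91 ± 0.67 over sham (edgeR adjusted p = 0.338) and 1.39 ± 0.66 over 1 d (edgeR adjusted p = 0.299), and neither passed. Without sham replicate 3, the C4b change at 7 d was 4.42 in WT (edgeR adjusted p = 0.000989) and 3.59 in Fgg γ390–396A mice (edgeR adjusted p = 0.00934), and C4b also passed at 1 d in Fgg γ390–396A mice (2.20, edgeR adjusted p = 0.0292). The call over sham in WT mice was lost without sham replicate 1 or 2 or any of the 3 WT 7 d libraries, with edgeR adjusted p from 0.073 to 0.176 for C4b, and that over 1 d without WT 1 d microglia replicate 3 (edgeR adjusted p = 0.0635). C4a, the near-identical neighbour of C4b, was at or below 1.07 CPM in every library, and adding its counts to C4b left the WT change over sham at 2.70 (edgeR adjusted p = 0.0359).

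Cfb, the protease component of the alternative pathway, was close to the detection limit in sham microglia, with 8, 0 and 3 counts (0.255, 0 and 0.0754 CPM). It measured 0.802, 0.109 and 0.507 CPM in WT and 1.42, 0.277 and 2.33 CPM in Fgg γ390–396A microglia at 1 d. At 7 d it measured 5.35, 9.71 and 6.92 CPM in WT and 5.40, 3.12 and 3.87 CPM in Fgg γ390–396A microglia. The 7 d libraries were all above the sham and 1 d libraries.

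Cfb rose at 7 d by a log2 fold change of 5.98 ± 1.04 in WT mice (edgeR adjusted p = 0.00232) and 5.16 ± 1.01 in Fgg γ390–396A mice (edgeR adjusted p = 0.0152). Already at 1 d it passed in Fgg γ390–396A mice (3.52 ± 0.99, edgeR adjusted p = 0.0267) and not in WT mice (2.03 ± 1.03, edgeR adjusted p = 0.21). From 1 d to 7 d it rose in WT mice (3.95 ± 0.91, edgeR adjusted p = 0.0066), and the change in Fgg γ390–396A mice was 1.64 ± 0.81 (edgeR adjusted p = 0.324). Both Cfb calls in Fgg γ390–396A mice over sham were lost without sham replicate 2 or 3 (edgeR adjusted p from 0.0715 to 0.109), and the 1 d call also without Fgg γ390–396A 1 d microglia replicate 3 (edgeR adjusted p = 0.118). Both were also lost when counts of the adjoining gene C2 were added to Cfb, with edgeR adjusted p = 0.326 at 1 d and 0.0672 at 7 d. C2 lies next to Cfb and measured at most 2.01 CPM in any library.

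C3, the central component on which the pathways converge, was low in microglia. It measured 0.223, 0.228 and 4.42 CPM in sham microglia, 4.66, 0.868 and 4.14 CPM in WT and 1.76, 1.11 and 0.723 CPM in Fgg γ390–396A microglia at 1 d. At 7 d it measured 11.7, 8.90 and 7.38 CPM in WT and 3.99, 4.70 and 3.76 CPM in Fgg γ390–396A microglia. Sham replicate 3 lay within the range of the 7 d libraries of Fgg γ390–396A mice, and C3 passed in no comparison with sham when all 3 sham libraries were used. The log2 fold change in WT mice at 7 d was 2.46 ± 0.77 (edgeR adjusted p = 0.119), which DESeq2 called (adjusted p = 0.0467).

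Cfp, which encodes properdin, measured 0.637, 1.06 and 3.77 CPM in sham microglia, where replicate 3 was again the highest. It measured 8.44, 1.81 and 4.72 CPM in WT microglia and 4.98, 2.04 and 2.53 CPM in Fgg γ390–396A microglia at 1 d. At 7 d it measured 4.40, 4.31 and 5.14 CPM in WT microglia and 2.51, 4.81 and 4.91 CPM in Fgg γ390–396A microglia. No comparison of Cfp with sham passed, and the largest log2 fold change was 1.42 ± 0.52 in the WT group at 1 d (edgeR adjusted p = 0.0718), which DESeq2 called (adjusted p = 0.034).

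Removing sham replicate 3 changed these results. Without it C3 passed in WT mice at 1 d (3.81, edgeR adjusted p = 0.00161) and 7 d (5.35, edgeR adjusted p = 0.000657) and in Fgg γ390–396A mice at 7 d (4.18, edgeR adjusted p = 0.00944). Without it Cfp passed in all 4 comparisons, at 2.56 (WT) and 1.93 (Fgg γ390–396A) at 1 d and at 2.45 and 2.26 at 7 d. The 2 remaining sham libraries, replicate 1 with its high dissociation-response sum among them, then set the baseline, and C3 had 7 and 6 counts in them. Among microglia after CCI, the neutrophil markers summed to between 106 and 872 CPM, and the library with the highest C3, WT 7 d replicate 1, also had the highest neutrophil sum. Csf3r made up 204 CPM of that sum, and 68.7 CPM of the neutrophil sum in WT 1 d replicate 1. WT 7 d replicates 2 and 3, next highest in C3 at 8.90 and 7.38 CPM, had neutrophil sums of 303 and 263 CPM. In WT 1 d replicate 1 C3 measured 4.66 CPM at a neutrophil sum of 843 CPM. The library with the highest Cfp in microglia, WT 1 d replicate 1, had the highest monocyte sum, 59.1 CPM, and a neutrophil sum of 843 CPM. The part of these cells in C3 and Cfp was not tested.

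**Figure D3:**
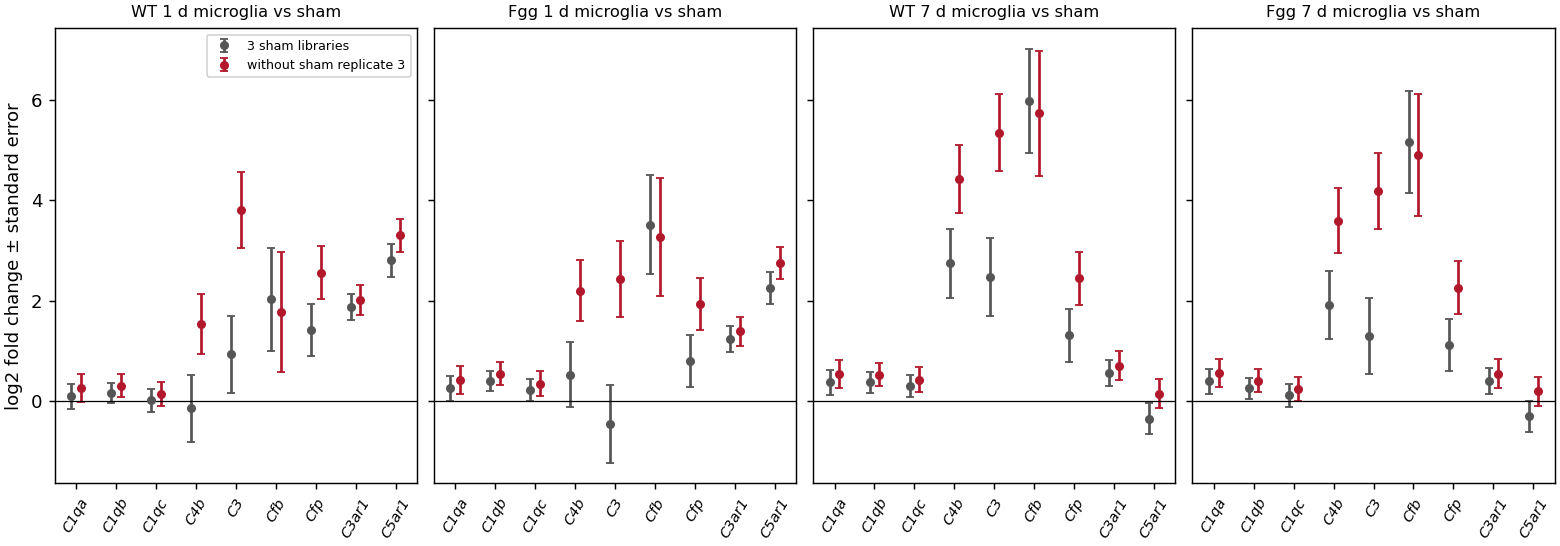
Log2 fold change with 1 standard error of each gene in the 4 comparisons with sham, using all 3 sham libraries (grey) or leaving out sham replicate 3 (red). C3, C4b and Cfp move upward without that library, C3 in WT mice at 7 d from 2.46 to 5.35, whereas the C1q chains and C3ar1 move by less than 0.2.

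Counted over the 9 members, 2 were called higher and 0 lower in WT microglia at 1 d over sham, where 8.06% of all genes tested were called higher and 4.21% lower. In Fgg γ390–396A microglia at 1 d, 3 were higher, against 5.49% of all genes. At 7 d over sham, 2 were higher in WT mice, against 1.93% of all genes, and 1 in Fgg γ390–396A mice, against 0.63%. All 4 comparisons share the sham libraries. Without sham replicate 3 the members called higher became 4, 4, 4 and 3, in the same order, and the background 7.83%, 5.33%, 2% and 0.73%. From 1 d to 7 d, 2 members were higher (2.67% of all genes) and 2 lower (4.39%) in WT mice. Over the same interval 0 were higher (0.663% of all genes) and 1 was lower (2.88%) in Fgg γ390–396A mice by edgeR's quasi-likelihood test. There 4 members had an unadjusted p under 0.05, as did 3894 of the 23815 genes tested. DESeq2 called C5ar1 alone of the members, and 1209 of all genes. The median log2 fold change over the members was 0.93 (WT) and 0.53 (Fgg γ390–396A) at 1 d over sham and 0.56 and 0.40 at 7 d, and the median over all genes was 0 in each. Over the 5437 expressed genes alone the medians were 0.21 and 0.19 at 1 d and 0.02 and 0.03 at 7 d.

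Infiltrating myeloid cells held more C3, Cfb and Cfp than microglia at 1 d in both genotypes. Cfp measured 144, 138 and 147 CPM in WT and 156, 147 and 128 CPM in Fgg γ390–396A infiltrating cells, with no overlap with any microglia library. Cfp was 28.6-fold higher than in microglia in WT mice (edgeR adjusted p = 6.35e-06) and 44.6-fold higher in Fgg γ390–396A mice (edgeR adjusted p = 1.77e-06). Blood neutrophils and monocytes are known sources of properdin.

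C3 measured 43.3, 40.7 and 91.9 CPM in WT and 44.0, 137 and 67.3 CPM in Fgg γ390–396A infiltrating cells. It was 18.2-fold higher than in microglia in WT mice (edgeR adjusted p = 0.00114) and 67.0-fold higher in Fgg γ390–396A mice (edgeR adjusted p = 5.92e-05). In both genotypes the infiltrating library with the highest C3 was also the one with the highest sum of neutrophil markers, at 13271 CPM in WT replicate 3 and 5884 CPM in Fgg γ390–396A replicate 2. The part of neutrophils in the C3 level was not tested.

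Cfb measured 14.4, 7.48 and 6.18 CPM in WT and 14.6, 1.11 and 12.1 CPM in Fgg γ390–396A infiltrating cells. WT infiltrating cells were all above WT microglia, whereas Fgg γ390–396A replicate 2 lay within the range of the microglia. Cfb was 19.8-fold higher in WT mice (edgeR adjusted p = 0.00248) and 6.96-fold higher in Fgg γ390–396A mice (edgeR adjusted p = 0.0205). The call in Fgg γ390–396A mice was lost without microglia replicate 1 or 2 or infiltrating replicate 1 (edgeR adjusted p for Cfb from 0.0611 to 0.0792). C4b measured 1.74, 2.00 and 0.676 CPM in WT and 2.08, 6.49 and 8.29 CPM in Fgg γ390–396A infiltrating cells and was not called between the populations.

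In both genotypes 3 members were thus higher in infiltrating cells and 3 lower. Over all genes tested, 5.61% were higher and 6.31% lower in WT mice, and the shares in the knock-in were 6.96% higher and 9.7% lower. The median log2 fold change over the members was -0.75 in WT and -0.11 in Fgg γ390–396A mice, against 0 and -0.13 over all genes. Over the 5437 expressed genes alone the medians were 0.05 and 0.04.

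**Figure D4:**
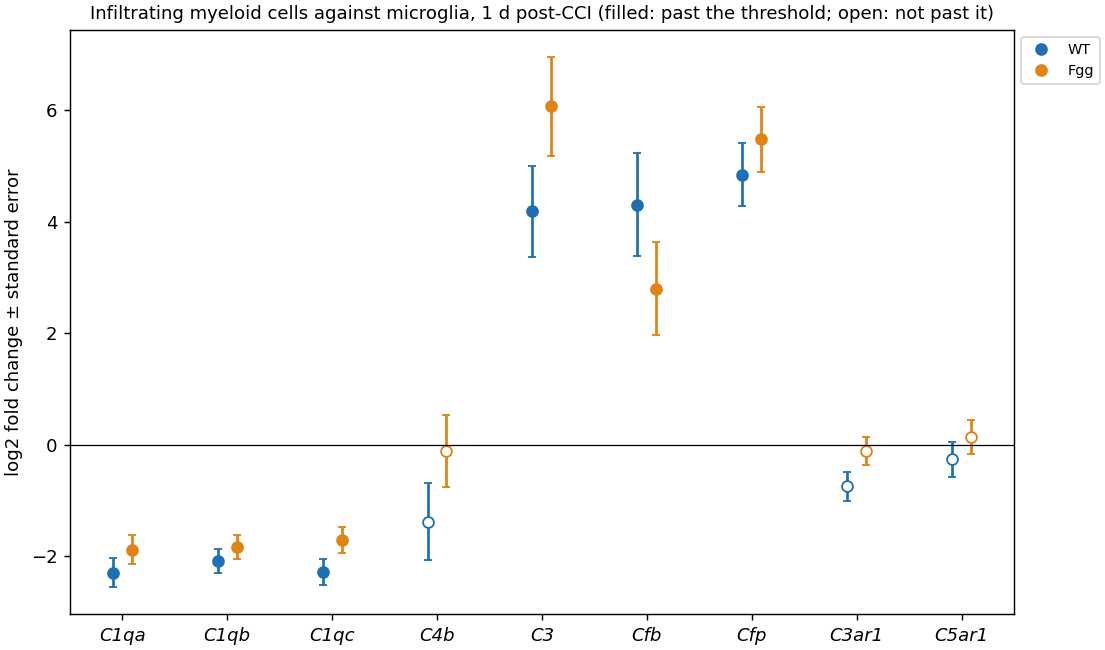
Log2 fold change with 1 standard error of each gene in infiltrating myeloid cells against microglia at 1 d post-CCI, in WT and Fgg mice (3 libraries per group). C3, Cfb and Cfp are above 0 and the 3 C1q chains below 0 as filled points in both genotypes, while C4b, C3ar1 and C5ar1 are open.

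The genes closest in level to Cfp across the 21 libraries were Slfn1 (r = 0.990), Ahnak and Clec4n, a C-type lectin of myeloid cells. Those closest to C3 were Gas7 (r = 0.973), Lyz2, the lysozyme of macrophages and granulocytes, and Pygl. C3 and Cfp correlated at 0.938. The genes closest to Cfb were Ifi206 (r = 0.945), Irf7 and Oasl2, which are interferon-induced genes, and those closest to C4b were Lgals3bp (r = 0.891), Tor3a and Gnas.

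The comparison of genotypes addressed whether the interaction of fibrin with CD11b/CD18 bears on complement expression after CCI. No member was called between Fgg γ390–396A and WT mice by edgeR's quasi-likelihood test. The count was 0 of 9 in microglia at 1 d, where 0.0546% of all genes were called and 1 member, C3ar1, had an unadjusted p under 0.05. It was 0 in microglia at 7 d, where 0.0378% of all genes were called and 0 members had an unadjusted p under 0.05. It was 0 in infiltrating cells, where 0.453% of all genes were called and 4 members, C1qa, C1qb, C1qc and C4b, had an unadjusted p under 0.05. Of all 23815 genes tested, 1209, 795 and 2749 had an unadjusted p under 0.05 in the same order. DESeq2 called 0, 0 and 1 members in the same order, and 104, 80 and 841 of all genes.

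In microglia no member passed the test between genotypes, and the log2 differences, Fgg γ390–396A minus WT, had both signs, with 5 of the 9 members positive at 1 d and 2 of the 9 at 7 d. At 1 d Cfb was at 1.49 ± 0.86 (95% interval -0.32 to 3.29), C4b at 0.67 ± 0.66 (95% interval -0.71 to 2.05), and the C1q chains at 0.16 for C1qa, 0.24 for C1qb and 0.21 for C1qc. Among the negative differences at 1 d, Cfp was at -0.63 ± 0.50, and the log2 difference was -0.63 ± 0.25 for C3ar1 (95% interval -1.16 to -0.10, edgeR adjusted p = 0.89), -0.55 ± 0.31 for C5ar1 and -1.38 ± 0.78 for C3. At 7 d it was -0.83 ± 0.65 for C4b (95% interval -2.18 to 0.52), -0.82 ± 0.78 for Cfb and -1.17 ± 0.74 for C3 (95% interval -2.70 to 0.37). The libraries of the 2 genotypes did not overlap for C3 and C4b at 7 d and overlapped for the other members. The share of all genes without overlap between these libraries was not computed, so no genotype difference is read from this. Intervals of this width do not show that the genotypes had the same level.

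In infiltrating cells the log2 difference, Fgg γ390–396A minus WT, was 1.93 ± 0.70 for C4b (edgeR adjusted p = 0.297), and DESeq2 called it at 1.96 (adjusted p = 0.0798). C4b rested on 46, 263 and 296 counts in Fgg γ390–396A and 72, 38 and 15 counts in WT libraries, so that replicate 1 of the knock-in lay close to WT. For C1qc the difference was 0.78 ± 0.22 (95% interval 0.31 to 1.25, edgeR adjusted p = 0.186), with DESeq2 adjusted p = 0.0067 at 0.81, below the fold threshold. Without Fgg γ390–396A infiltrating replicate 1, C1qc passed at 1.01 (edgeR adjusted p = 0.0511). For C1qa and C1qb the differences were 0.57 ± 0.25 and 0.49 ± 0.21. The microglia marker sums of these libraries were also higher in Fgg γ390–396A than in WT infiltrating cells at the median, 725 against 622 CPM, but overlapped. Of the 8 microglia markers only Olfml3 had the lower mean in Fgg γ390–396A infiltrating cells, 16.5 ± 3.1 against 31.6 ± 10.9 CPM (SD, n = 3). Border-associated macrophage markers, a list of 6 genes, summed to 1720, 1185 and 2094 CPM in WT and 1882, 2046 and 1310 CPM in Fgg γ390–396A infiltrating cells, which overlapped. Of these markers Lyve1 measured 3.36, 4.69 and 2.25 CPM in WT and 7.50, 37.8 and 36.5 CPM in Fgg γ390–396A libraries, and Cd163 measured 0.967, 2.26 and 1.04 CPM and 3.70, 9.23 and 7.22 CPM. Mrc1 measured 72.4, 54.8 and 65.5 CPM and 96.0, 112 and 120 CPM. These 3 markers did not overlap between genotypes, and Fgg γ390–396A replicate 1, with the lowest C4b of the knock-in, was also the lowest of its group in each of them. F13a1 went the other way without overlap, at 171, 182 and 191 CPM in WT and 148, 136 and 166 CPM in Fgg γ390–396A libraries. The other markers of the list, Pf4 and Cbr2, overlapped. The share of all genes without overlap between these libraries was not computed. The part of microglia and of border-associated macrophages in these differences was not tested.

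The genotype difference was also tested for a change between times and between populations. For the difference between 7 d and 1 d in microglia, 0 members passed edgeR's quasi-likelihood test, 0 had an unadjusted p under 0.05 and DESeq2 called 0, and 0% of all genes passed. Of all genes tested, 653 had an unadjusted p under 0.05 and DESeq2 called 33. For the difference between infiltrating cells and microglia at 1 d, 0 members passed, 0 had an unadjusted p under 0.05 and DESeq2 called 0, and 0.0462% of all genes passed. There 1994 of all genes tested had an unadjusted p under 0.05 and DESeq2 called 259. A call in 1 genotype only, such as that of C4b at 7 d, is therefore not shown to differ between genotypes.

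**Figure D5:**
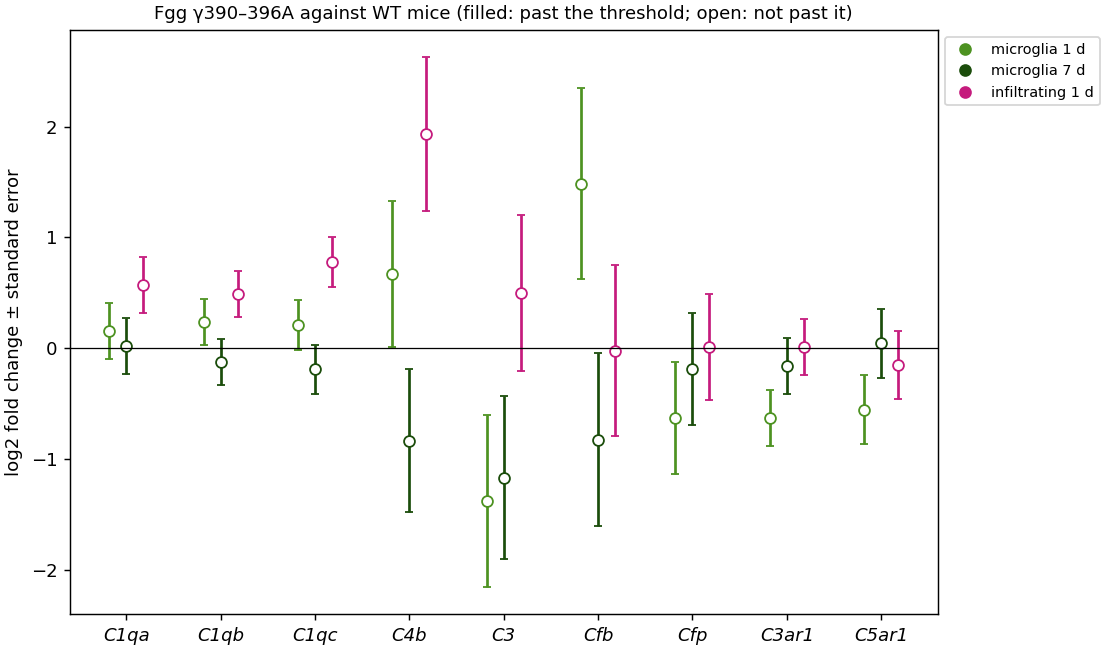
Log2 fold change with 1 standard error of each gene in Fgg γ390–396A against WT mice, in microglia at 1 d and 7 d and in infiltrating myeloid cells at 1 d (3 libraries per group). Every point is open; C4b in infiltrating cells lies farthest above 0, at 1.93, and C3 in microglia at 1 d farthest below, at -1.38.

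The wider complement system was covered by a list of 49 further genes, 36 of which passed the filter on low counts. At 1 d over sham, 2 of the 36 were higher in each genotype, C1qbp, a mitochondrial protein that also binds C1q, and Calr, the chaperone calreticulin, a further C1q-binding protein, against 8.06% of all genes tested called higher in WT and 5.49% in Fgg γ390–396A mice. C1qbp rose 3.58-fold in WT and 3.13-fold in Fgg γ390–396A mice, and Calr 2.74-fold and 2.32-fold. C5ar2, the second receptor for C5a, was the 1 gene lower, in WT mice at 1 d, from 34.5 ± 6.8 to 13.7 ± 3.1 CPM (SD, n = 3, edgeR adjusted p = 0.0012), opposite in direction to C5ar1, beside 4.21% of all genes tested called lower. None, 0 of the 36, was called lower in Fgg γ390–396A mice at 1 d, where 1.15% of all genes tested were. C5ar2 measured 19.1 ± 5.1 CPM in these mice, between its means in WT mice at 1 d and in sham. Its call in WT mice alone is therefore not shown to differ between genotypes.

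At 7 d the 1 gene of the 36 called over sham was Itgax, the CD11c chain of complement receptor 4, in both genotypes, against 1.93% of all genes tested called higher in WT and 0.63% in Fgg γ390–396A mice. Itgax rose from 2.00 ± 0.96 CPM in sham to 16.4 ± 2.8 CPM in WT (edgeR adjusted p = 0.000113) and 9.67 ± 4.1 CPM in Fgg γ390–396A microglia (edgeR adjusted p = 0.00343). From 1 d to 7 d Itgax rose, and C1qbp and Calr fell, in both genotypes. The subunits of complement receptor 3, which bind the fibrin motif altered in the knock-in, were not called in microglia. Itgam, which encodes CD11b, was at 267 ± 52 CPM in sham, 401 ± 28 in WT and 395 ± 44 CPM in Fgg γ390–396A microglia at 1 d, log2 fold changes of 0.59 and 0.56 that were under the fold threshold.

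In infiltrating cells 3 of the 36 were higher than in microglia in both genotypes: Itgax, Cd93, a receptor linked to uptake of apoptotic cells, and Itgb2, which encodes CD18. Of all genes tested, 5.61% in WT and 6.96% in Fgg γ390–396A mice were called higher in infiltrating cells. Cd93 was 18.1-fold higher in WT and 22.4-fold higher in Fgg γ390–396A mice, and Itgb2 2.13-fold and 2.09-fold. Between genotypes 0 of the 36 were called by edgeR's quasi-likelihood test.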

How the data were processed

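RNA of sorted microglia and infiltrating myeloid cells was sequenced in 21 libraries. The values deposited by the authors are expected counts from salmon, run with STAR within nf-core/rnaseq against GRCm38, from which gene length is divided out and each library is scaled to its mapped reads, with no normalization between libraries. The submitters' processing notes name R 4.2.0 and DESeq2 1.36.0. The annotation release is not given in the sources used here. Of 45706 gene identifiers, 45143 matched GENCODE M21. Values were rounded to whole counts, and a gene needed at least 5 counts summed over the 21 libraries.

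Counts were fitted in R 4.3.3 with edgeR 4.0.16 (TMM, glmQLFit, glmQLFTest, Benjamini-Hochberg adjustment), with 1 mean per group and no other term, in all 21 libraries together. The standard error came from the fold change and its F statistic. Alternatives were DESeq2 1.42.0, other scalings, filters, thresholds and sets of libraries, leaving out each library, and summing C4b with C4a and Cfb with C2. The scalings without TMM were chosen after seeing the data. Replicates pooled 2 brains each, and p-values measure the spread between such pools.

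All 9 members were named. From a wider complement list, genes called in a comparison were named, at most 3 per direction, with C4a, C2, Itgam and Itgb2, and for each member the 3 most correlated protein-coding genes. Genes of that list called lower in infiltrating cells are not reported here. The members and lists were chosen with earlier results of these data known.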

Additional observations from a re-analysis of the deposited data

How the results depend on the processing

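Of the 117 log2 fold changes of single members, 96 kept their call under every alternative. Of 3833 values recomputed for members and comparisons, 3785 stayed on the same side of the threshold, 30 lost and 18 gained a call, and 0 called values changed sign. With the compared groups alone in the fit, the members called became 3 (C3, C4b and C5ar1) in place of 1 for Fgg γ390–396A microglia from 1 d to 7 d, 0 in place of 1 for these mice at 7 d over sham, and 1 in place of 2 for WT mice at 7 d over sham. At an adjusted p under 0.01 the last 2 became 0 and 1. Without TMM factors, on library totals, 1 in place of 3 members was called in Fgg γ390–396A microglia at 1 d over sham, and 1 in place of 2 in WT mice at 7 d. On totals outside ribosomal RNA the first of these was also 1. DESeq2 called 1 in place of 0 members, C4b, between genotypes in infiltrating cells, where it called 841 of all genes and edgeR 108. The share of all genes called was not computed for the compared groups alone, the stricter threshold or the totals. Those counts therefore describe how stable the calls were, and are not set against all genes. The cause of these differences was not tested.

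Leaving out 1 library at a time gave 2 to 4 members in WT mice at 1 d over sham, 1 to 4 in WT mice at 7 d, 0 to 3 in Fgg γ390–396A mice at 7 d, 1 to 2 from 1 d to 7 d in Fgg γ390–396A mice, and 0 to 1 between genotypes in infiltrating cells. The highest counts over sham came without sham replicate 3, and the 0 over sham came without sham replicate 2. Apart from the fit without sham replicate 3, given above, the share of all genes called was not computed for these fits.

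Whether replicate numbers pair the libraries was not settled. Deviations of same-numbered libraries correlated at -0.034 to 0.210, and in 0 of 11 comparisons was every pair above 0.1. However, 13 of 21 libraries correlated best with their own number, out of 3 possible numbers. With the replicate number as a block, the members called were 2, 3, 2 and 1 over sham (WT then knock-in at 1 d, the same at 7 d), 4 and 1 from 1 d to 7 d, 6 and 6 between populations and 0 between genotypes, the counts without it. Of all 23815 genes tested, the block fit called 2947, 1613, 495 and 185 over sham and 1732 and 878 from 1 d to 7 d. It called 2793 and 3924 between populations, and 16, 10 and 66 between genotypes. Cfb and C3 had fewer than 10 counts in at least 2 sham libraries each, so their changes over sham rest on a low baseline. These counts are length-scaled values and not numbers of reads.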
